A study of Mus musculus with 23 samples.

Results

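The mitochondrial ribosome is built in part from proteins encoded by nuclear genes whose mouse symbols begin with Mrpl for the large subunit and Mrps for the small subunit. Every gene whose symbol began in that way and continued with a digit was taken from the table of BAT transcripts, which gave 79 of 14651 genes. Of these 47 were genes of the large subunit, 29 of the small subunit and 3 were pseudogenes by name (Mrpl48-ps, Mrpl23-ps1 and Mrps36-ps1). The 76 genes other than the pseudogenes are called members here, and they lay on 17 chromosomes, with 10 members on chromosome 11. All 79 genes had enough reads to be tested, and the pseudogenes were counted apart, with 0 of 3 called changed in any comparison (0 of 3 also had an unadjusted limma p under 0.05).

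The study sequenced RNA from the interscapular brown fat (BAT) of male C57BL/6 mice aged 8 to 12 weeks, with 1 library per mouse. All mice carried Mcu[fl/fl], that is Mcu with loxP sites around the second exon. Control mice had no Cre, and BAT-Mcu-KO mice also carried Ucp1-Cre, in which the Ucp1 promoter drives Cre in brown adipocytes while other cells of the depot keep an intact Mcu. Mice stayed at room temperature (RT) or were housed singly at 4°C for 6 h, which gave control RT (n = 6), control 4°C (n = 5), BAT-Mcu-KO RT (n = 6) and BAT-Mcu-KO 4°C (n = 6). The protocol gave mice at 4°C no food unless stated otherwise, so that cold and the lack of food cannot be told apart here. In bulk tissue, fewer cells of a type and less RNA per cell cannot be told apart either.

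The mitochondrial ribosome translates the small set of messages kept in mitochondrial DNA, all of them for subunits of complexes I, III, IV and V of the respiratory chain. Its small subunit holds the decoding center, and its large subunit joins the amino acids and releases the chain through a tunnel that faces the inner membrane. Its ribosomal RNAs come from mitochondrial DNA, whereas all of its proteins are made in the cytosol and imported, and brown fat, which is packed with respiring mitochondria, uses many such ribosomes. The names follow history more than structure: the products of Mrps30 and Mrps18a are now placed in the large subunit, and the product of Mrps36 is now known as a component of the oxoglutarate dehydrogenase complex.

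Depth was 7129271 to 21006347 reads in the 22 libraries whose reads were taken back from the normalized counts. Mcu had a normalized count of 70.8 to 136 in control mice and 15.2 to 42.4 in BAT-Mcu-KO mice, without overlap. The 9 brown adipocyte markers summed to 122633 to 177091 normalized counts per mouse at RT and 207265 to 258527 at 4°C, with 2 higher and 5 lower by cold in control mice and 2 higher and 3 lower in BAT-Mcu-KO mice. Skeletal muscle markers (7 genes) summed to 6.22 to 30352 in control and 18.6 to 43515 in BAT-Mcu-KO mice, with 0 of 7 called in any comparison and 6 of the 7 at 0 in at least 1 mouse, and their part in the results was not tested. Endothelial markers (4 genes) summed to 2679 to 3888 at RT and 4106 to 7201 at 4°C, with 2 higher and 1 lower by cold in each genotype, and white adipocyte markers (3 of 4 tested) to 608 to 1848 at RT and 314 to 716 at 4°C. These lists moved with cold, and their part in the results below was not tested. Of the remaining lists, 4 Schwann cell markers had 1 called (lower by cold in BAT-Mcu-KO mice), 3 erythroid markers 0, and the 5 tested of 7 macrophage and leucocyte markers 1 higher and 1 lower by cold in BAT-Mcu-KO mice. In 2 control mice at RT, mice 1 and 6, members stood on average 0.24 and 0.32 on the log2 scale above their mean over all 23 mice, against at most 0.10 in any other mouse. The counts and medians for cold in control mice, and the values that moved most, are therefore also given without both of them, an alternative chosen after the data were seen.

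The promoters of 5 members are shown because the cold results below turn on them: Mrpl49 fell the most, Mrps2 rose the most, and Mrps18a, Mrps18b and Mrps18c are paralogs whose changes differed. Each is 300 bases, 5′ to 3′ on the strand of the gene, from RefSeq's promoter table on build GRCm38.p6, in which 67 of 76 members were found. They run from 250 bases before the start used in that table to 50 bases after it. That start can differ from the GENCODE start used for gene positions elsewhere in this text. For Mrps18b all 300 bases lie before the GENCODE start at 35916389. Capitals mark matches, on either strand, to GCATGCG (center of the motif of NRF1), CCGGAAG (motif of ETS factors such as GABPA) and AAGATGG (motif of YY1), 3 factors known to act at promoters of genes for mitochondrial proteins.
Mrpl49 (chr19:6057706-6058005, minus strand): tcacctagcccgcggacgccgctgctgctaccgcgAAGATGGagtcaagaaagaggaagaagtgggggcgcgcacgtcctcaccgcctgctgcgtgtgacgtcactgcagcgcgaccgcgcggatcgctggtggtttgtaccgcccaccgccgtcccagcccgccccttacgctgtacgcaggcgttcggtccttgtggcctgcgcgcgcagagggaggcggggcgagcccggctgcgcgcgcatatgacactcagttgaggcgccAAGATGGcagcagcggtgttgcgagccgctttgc
Mrps2 (chr2:28467816-28468115, plus strand): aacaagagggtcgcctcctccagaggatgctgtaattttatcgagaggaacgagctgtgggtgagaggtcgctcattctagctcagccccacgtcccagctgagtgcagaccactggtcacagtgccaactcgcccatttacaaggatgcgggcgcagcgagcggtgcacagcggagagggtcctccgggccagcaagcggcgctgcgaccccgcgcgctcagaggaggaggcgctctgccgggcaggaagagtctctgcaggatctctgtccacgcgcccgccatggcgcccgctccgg
Mrps18a (chr17:46110754-46111053, plus strand): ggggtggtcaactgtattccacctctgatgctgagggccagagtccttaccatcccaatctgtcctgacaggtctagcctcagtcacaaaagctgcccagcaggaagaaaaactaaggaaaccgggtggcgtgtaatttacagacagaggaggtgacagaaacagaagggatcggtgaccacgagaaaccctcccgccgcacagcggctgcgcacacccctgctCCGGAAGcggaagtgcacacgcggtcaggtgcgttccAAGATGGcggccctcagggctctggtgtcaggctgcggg
Mrps18b (chr17:35916391-35916690, minus strand): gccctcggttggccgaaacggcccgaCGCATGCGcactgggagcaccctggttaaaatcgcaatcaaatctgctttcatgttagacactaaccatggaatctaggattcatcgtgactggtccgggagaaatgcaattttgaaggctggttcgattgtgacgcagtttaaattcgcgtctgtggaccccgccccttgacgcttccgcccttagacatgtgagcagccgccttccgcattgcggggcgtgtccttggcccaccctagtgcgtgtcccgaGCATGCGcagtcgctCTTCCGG
Mrps18c (chr5:100798509-100798808, plus strand): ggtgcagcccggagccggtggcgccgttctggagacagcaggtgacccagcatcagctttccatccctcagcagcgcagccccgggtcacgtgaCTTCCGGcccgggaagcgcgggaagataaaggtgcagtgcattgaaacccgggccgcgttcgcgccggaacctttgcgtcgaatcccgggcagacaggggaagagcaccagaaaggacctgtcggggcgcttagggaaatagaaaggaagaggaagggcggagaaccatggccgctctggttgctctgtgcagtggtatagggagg
The promoter of Mrpl49 holds AAGATGG in 2 places. That of Mrps2 holds none of the 3 motifs. That of Mrps18a holds CCGGAAG and AAGATGG, that of Mrps18b holds GCATGCG in 3 matches, of which 2 are the same palindromic stretch read on both strands, and CCGGAAG on the opposite strand, and that of Mrps18c holds CCGGAAG on the opposite strand.

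At least 1 of the 3 motifs was found for 36 of the 67 members with a promoter (53.7%). The shares were 31.0% of the 9982 tested genes with a promoter and 19.3% of the 27025 genes in the promoter table. Counts are per gene, and the 67 members had 73 promoters listed. CCGGAAG was found in 35.8% of members against 19.5% of tested genes, AAGATGG in 19.4% against 8.30%, and GCATGCG in 11.9% against 7.14%. The large subunit had GCATGCG for 7 of 41 genes and the small subunit for 1 of 26, whereas CCGGAAG was found for 13 of 41 and 11 of 26. Of the members called lower by cold in control mice 17 of 30 with a promoter had a motif, and of those called higher 3 of 7. Match and no match describe these 300 bases only.

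Members were among the more abundant messages of BAT. Per kilobase of the principal mRNA, the median member had a level of 469.9 normalized counts over all 23 mice, against 47.9 for the 12071 genes with a length, and 89.9% of those genes lay below the median member. The median level per kilobase was 509.6 for the large subunit and 390.1 for the small subunit. The 4 highest levels per kilobase in the large subunit were those of Mrpl42 (2820.0), Mrpl20 (2436), Mrpl30 (2023) and Mrpl34 (1932), and in the small subunit those of Mrps24 (1256), Mrps18a (1168), Mrps21 (1133) and Mrps23 (953). With all annotated exons as the length, 2 of these 4 and 3 of these 4 remained among the 4 highest of their subunit. The lowest levels per kilobase were those of Mrpl23 (47.04) and Mrpl19 (67.9). Mrpl23 has a processed pseudogene, Mrpl23-ps1, and reads matching both equally well could not be counted for either. Whether this lowered the level of Mrpl23 was not tested.

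Cold lowered more members than it raised in control mice. By limma, with Benjamini-Hochberg adjustment over all genes, 41 of 76 members were called, 7 higher and 34 lower at 4°C, where 46% of all genes were called, 22.3% higher and 23.7% lower. In the large subunit 4 rose and 20 fell of 47, and in the small subunit 3 rose and 14 fell of 29. With control mice 1 and 6 at RT left out, 6 rose and 12 fell in the large and 4 rose and 8 fell in the small subunit. The changes were small: the median log2 change was -0.23 for members and -0.02 for all genes, the interquartile range of members was 0.41 on the log2 scale against 0.91 for all genes, and 1 member changed by at least 2-fold. The groups did not overlap for 5 members that were higher and 18 that were lower at 4°C, where 13% and 12.3% of all genes did so, and for 9 and 18 members against the other 4 mice at RT alone, where 15.1% of all genes did so in either direction. The split depended on scaling and samples. Scaling to the 75th percentile gave 6 higher and 45 lower with a member median of -0.34. It also moved the median of all genes from -0.02 to -0.13 and called 2644 of them higher and 4281 lower. Quantile normalization gave 6 and 46 members, and 3094 and 3600 of all genes. Without control mice 1 and 6 at RT there were 10 higher and 20 lower members, with a median of -0.12. There 19.8% and 20.3% of all genes were called. All 7 higher members and 20 of the 34 lower members kept their call without these 2 mice, and Mrpl51, Mrpl54 and Mrps18a were added to the higher ones.

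**Figure D1:**
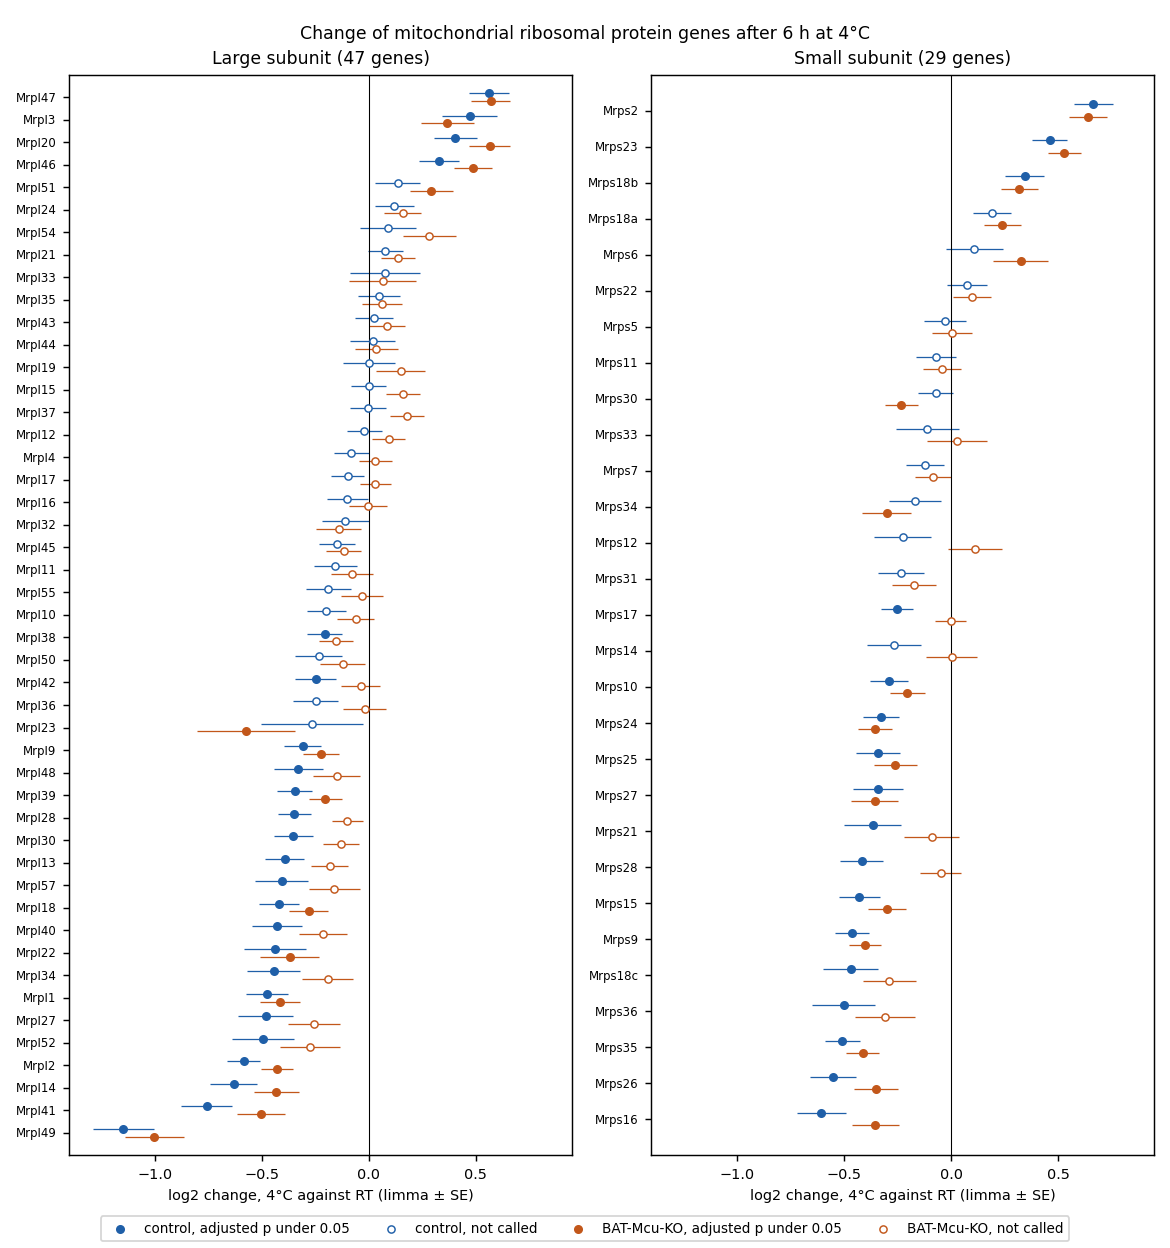
Log2 change (x axis, limma estimate ± SE) of each of the 76 members after 6 h at 4°C in control (blue) and BAT-Mcu-KO mice (orange), large subunit on the left and small subunit on the right, ordered by the change in control mice, with filled points for an adjusted p under 0.05. Mrpl49 lies at -1.15 and -1.002, below all other members, and Mrps2 is highest at 0.66 and 0.64.

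Among the members lower in both genotypes, the 6 with the smallest p in control mice were Mrpl49, Mrpl2, Mrpl41, Mrps35, Mrps9 and Mrpl14. Mrpl49 (chr19:6053622-6057785, minus strand) encodes a protein that the bacterial large subunit lacks. Its normalized count ran from 566 to 771 with a median of 654 in control mice at RT and was 247, 346, 339, 268 and 307 in the 5 control mice in the cold. BAT-Mcu-KO values ran from 489.8 to 693 with a median of 652 at RT and from 230.5 to 463 with a median of 308 at 4°C. Every mouse at 4°C lay below every mouse of its genotype at RT, and the log2 change was -1.15 ± 0.14 for control (limma adjusted p = 4.22e-07) and -1.002 ± 0.14 for BAT-Mcu-KO mice (limma adjusted p = 1.65e-06). The count at 4°C was thus 0.452 and 0.499 of that at RT, and it rested on 122 to 954 reads per library.

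Mrpl2, a homolog of the bacterial protein of the same number that lies next to the peptidyl transferase center, had normalized counts of 1077 to 1446 in control mice at RT against 825, 847, 811, 813 and 743 at 4°C. The BAT-Mcu-KO range was 1089 to 1240.2 at RT and 745 to 944 at 4°C. No mouse at 4°C reached the lowest mouse of its genotype at RT, and the log2 change was -0.58 ± 0.08 (limma adjusted p = 9.7e-07) in control and -0.43 ± 0.07 (adjusted p = 3.72e-05) in BAT-Mcu-KO mice. Mrpl41, which has no bacterial counterpart, went from 386 ± 49.2 (mean ± SD, n = 6) to 229.9 ± 40.7 normalized counts (n = 5) in control mice, with values at 4°C of 265, 255, 256, 174 and 199. Its log2 change was -0.76 ± 0.12 for control (limma adjusted p = 1.01e-05) and -0.50 ± 0.11 for BAT-Mcu-KO mice (adjusted p = 0.000762). These groups did not overlap in either genotype.

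Mrpl14, a homolog of the bacterial protein of the same number, fell by 0.63 on the log2 scale in control mice, with normalized counts that ran from 496 to 814 with a median of 574 at RT and were 374, 409.7, 406, 366 and 391 at 4°C. With the knockout it fell by 0.43 on the same scale. Mrps35, a small subunit protein particular to mitochondria, had normalized counts of 1602 to 2257 in control mice at RT against 1286, 1332, 1363, 1191 and 1217 at 4°C, with a log2 change of -0.51 ± 0.08, against -0.41 ± 0.08 in BAT-Mcu-KO mice. Both genes were separated from RT in all mice of both genotypes. Mrps9, a homolog of the bacterial protein of the same number, had a log2 change of -0.46 ± 0.08 for control and -0.40 ± 0.08 for BAT-Mcu-KO mice, and in control mice its values at 4°C (783, 648, 696, 666 and 682) overlapped the lowest value at RT (778) in mouse 1. For these 3 genes the limma adjusted p was 4.18e-05, 1.26e-05 and 3.57e-05 in control mice and 0.00158, 0.000106 and 0.00012 in BAT-Mcu-KO mice.

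In both genotypes 7 members rose: Mrps2, Mrps23, Mrps18b, Mrpl47, Mrpl20, Mrpl3 and Mrpl46. Mrps2 (chr2:28468066-28471178, plus strand), a homolog of the bacterial protein of the same number, had a normalized count that ran from 815 to 1109 with a median of 897 in control mice at RT and was 1503, 1420.5, 1507, 1474 and 1429 at 4°C. BAT-Mcu-KO values ran from 892 to 1072 with a median of 947 at RT and from 1248 to 1701 with a median of 1519 at 4°C. All mice at 4°C exceeded all mice of their genotype at RT, with a log2 change of 0.66 ± 0.09 for control (limma adjusted p = 1.72e-06) and 0.64 ± 0.09 for BAT-Mcu-KO mice (limma adjusted p = 1.6e-06).

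Mrps23, whose product is particular to the mitochondrial small subunit, had normalized counts of 879 to 1212 in control mice at RT against 1469, 1490.3, 1567, 1422 and 1385 at 4°C. Its log2 change was 0.46 ± 0.08 for control (limma adjusted p = 5.59e-05) and 0.53 ± 0.08 for BAT-Mcu-KO mice (adjusted p = 5.29e-06), without overlap of the groups in either. Mrpl47, which encodes a protein at the exit of the peptide tunnel, had counts of 361 to 491 at RT against 605, 637, 639.7, 611 and 695 at 4°C in control mice, and again no mouse overlapped. Its log2 change was 0.56 ± 0.09 (limma adjusted p = 2.27e-05) and 0.57 ± 0.09 (adjusted p = 1.08e-05) in control and BAT-Mcu-KO mice. Annotated exons of Mrpl47 share 616 bp with Ndufb5 and 452 bp with Actl6a on the other strand, and because the counting did not use strand, reads from these stretches cannot be assigned. The log2 change by cold in control mice was -0.16 for Ndufb5 and 0.23 for Actl6a, neither called.

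Mrpl20, the second highest member per kilobase, had normalized counts of 1538 to 1984 in control mice at RT against 2567, 2331, 2352, 2061 and 1961 at 4°C, so that 4 of 5 mice lay above all mice at RT. The log2 change was 0.40 ± 0.10 for control (limma adjusted p = 0.00184) and 0.56 ± 0.10 for BAT-Mcu-KO mice (adjusted p = 3.24e-05), and under quantile normalization the control value was no longer called. Mrpl3, the homolog of a bacterial protein that reaches toward the peptidyl transferase center, had log2 changes of 0.47 ± 0.13 (limma adjusted p = 0.00417) and 0.37 ± 0.12 (adjusted p = 0.0181). In the fit without control mice 1 and 6 at RT the control value was 0.25 ± 0.10 (limma adjusted p = 0.0495). The call in BAT-Mcu-KO mice was lost without BAT-Mcu-KO mouse 5 at RT, whose count of 677 was the lowest of its group, and under quantile normalization (the highest adjusted p over the alternatives was 0.122). Mrpl46, which has no bacterial counterpart, had log2 changes of 0.33 ± 0.09 (limma adjusted p = 0.00491) and 0.49 ± 0.09 (adjusted p = 7.02e-05), and its control call was lost under scaling to the 75th percentile.

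**Figure D2:**
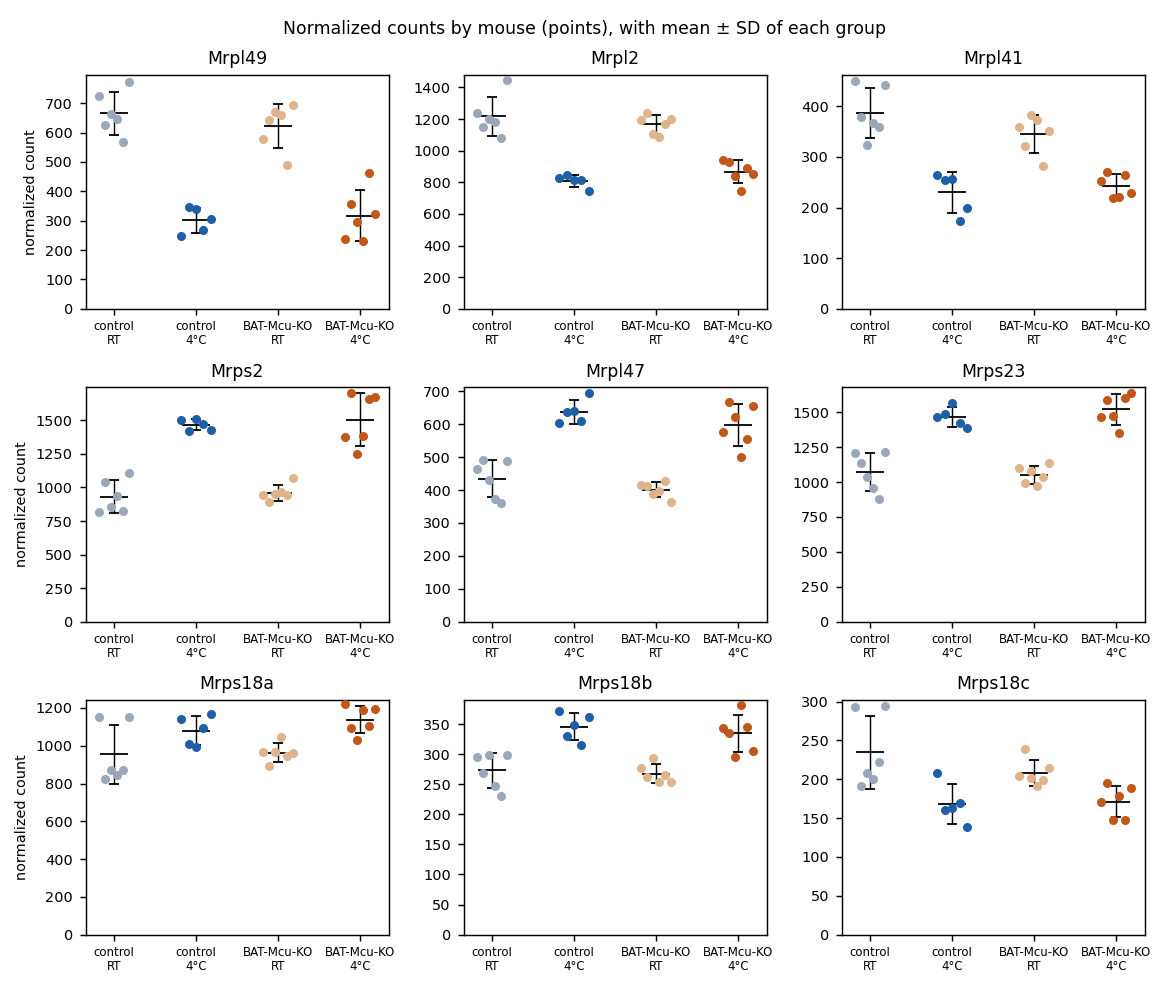
Normalized counts (y axis, from 0) of 9 members in each mouse (points) with the mean ± SD of each group (black), for 4 groups on the x axis. The upper row shows 3 members that fell, the middle row 3 that rose, in both genotypes without overlap, and the lower row the Mrps18 paralogs, of which Mrps18b rose and Mrps18c lay lower at 4°C.

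In BAT-Mcu-KO mice cold called 31 of 76 members, 10 higher and 21 lower, where 43.3% of all genes were called, 21.4% higher and 21.9% lower. In the large subunit 5 rose and 10 fell of 47, and in the small subunit 5 rose and 11 fell of 29. The median log2 change was -0.09 for members and -0.02 for all genes. The groups did not overlap for 8 members higher and 11 lower at 4°C, against 12.4% and 11.9% of all genes. Quantile normalization gave 6 higher and 34 lower, with a median of -0.21, and scaling to the 75th percentile 7 and 26. The share of calls that were higher moved from 32.3% to 15.0% and 21.2%. Of all genes, quantile normalization called 3136 higher and 3265 lower, and the 75th percentile 2799 and 3552, with a median of -0.07. The member median less that of all genes was -0.064, -0.200 with quantile normalization and -0.065 with the 75th percentile.

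Set side by side, the cold comparisons of the 2 genotypes called 7 members higher in both and 18 lower in both, and 0 in opposite directions, where 17.3% of all genes were called higher in both, 17.5% lower in both and 0.00683% in opposite directions. The 18 were Mrpl1, Mrpl2, Mrpl9, Mrpl14, Mrpl18, Mrpl22, Mrpl39, Mrpl41 and Mrpl49 of the large subunit and Mrps9, Mrps10, Mrps15, Mrps16, Mrps24, Mrps25, Mrps26, Mrps27 and Mrps35 of the small subunit. A further 16 were called lower in control mice alone, 3 lower (Mrpl23, Mrps30 and Mrps34) and 3 higher (Mrpl51, Mrps18a and Mrps6) in BAT-Mcu-KO mice alone, and 29 in neither. Of all genes, 6.19% were called lower in control mice alone, 4.46% lower and 4.12% higher in BAT-Mcu-KO mice alone, and 45.5% in neither. Without control mice 1 and 6 at RT, 10 members were higher in both and 14 lower in both (16.8% and 16.6% of all genes). Then 6 were lower in control mice alone (3.7%), 10 lower and 3 higher in BAT-Mcu-KO mice alone (5.67% and 5.14%), and 33 in neither (49.1%). A call in 1 genotype alone does not show that the genotypes differed, and the test of that difference, the interaction, is given below. Mrpl23, with normalized counts of 32.5 to 49.5 at RT and 17.7 to 36.4 at 4°C in BAT-Mcu-KO mice, lost its call under 3 other settings and without each of 9 mice in turn, and Mrps6, whose exons share 159 bp with Slc5a3 on the same strand, under 4 settings and without each of 7 mice in turn.

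The large and the small subunit moved together from mouse to mouse. For each mouse, the log2 deviation of each member from its mean over the 23 mice was averaged over the subunit. The large subunit averaged 0.08 ± 0.17 (SD, n = 6) in control mice at RT, -0.10 ± 0.05 (n = 5) at 4°C, 0.04 ± 0.07 (n = 6) for BAT-Mcu-KO at RT and -0.03 ± 0.08 (n = 6) at 4°C. The small subunit averaged 0.08 ± 0.16, -0.10 ± 0.05, 0.04 ± 0.05 and -0.03 ± 0.08 in the same groups. Measured from the group means, both subunits lay on the same side in 19 of 23 mice, and the gap between them was at most 0.037. Large subunit transcripts took 65.5% to 67.0% of the normalized counts of all members in every mouse.

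The median change by cold was -0.20 for the large and -0.25 for the small subunit in control mice, and -0.08 and -0.09 in BAT-Mcu-KO mice. With Mrps18a and Mrps30 counted in the large subunit and Mrps36 left out, 4 rose and 20 fell of 49 in the large and 3 rose and 13 fell of 26 in the small subunit in control mice, with medians of -0.19 and -0.26. Without control mice 1 and 6 at RT the medians in control mice were -0.09 for the large and -0.13 for the small subunit, and -0.09 and -0.17 with the structural placing, where 7 rose and 12 fell in the large and 3 rose and 8 fell in the small subunit. Within each subunit the interquartile range of the changes was 0.41 and 0.35 in control mice and 0.30 and 0.33 in BAT-Mcu-KO mice. The difference between the subunits was not tested.

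The spread between control mice at RT was wide. The mean deviation of all 76 members was 0.24 in mouse 1 and 0.32 in mouse 6, and -0.11 to 0.07 in mice 2 to 5. The same 2 mice stood at 0.25 and 0.41 for the 80 cytosolic ribosomal proteins (-0.22 to -0.03 in mice 2 to 5) and at 0.40 and 0.44 for 82 nuclear genes of the respiratory chain (-0.12 to 0.02 in mice 2 to 5), so that their stand was shared by other abundant gene groups. The muscle markers summed to 5778 and 29.8 normalized counts in these 2 mice and to 1456 to 2174 in mice 2 to 5, and 64 and 69 of 76 members stood above their mean. In the other groups the member mean ran from -0.19 to -0.06 in control mice at 4°C, -0.07 to 0.10 for BAT-Mcu-KO at RT and -0.16 to 0.06 at 4°C, and each pair of groups overlapped.

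**Figure D3:**
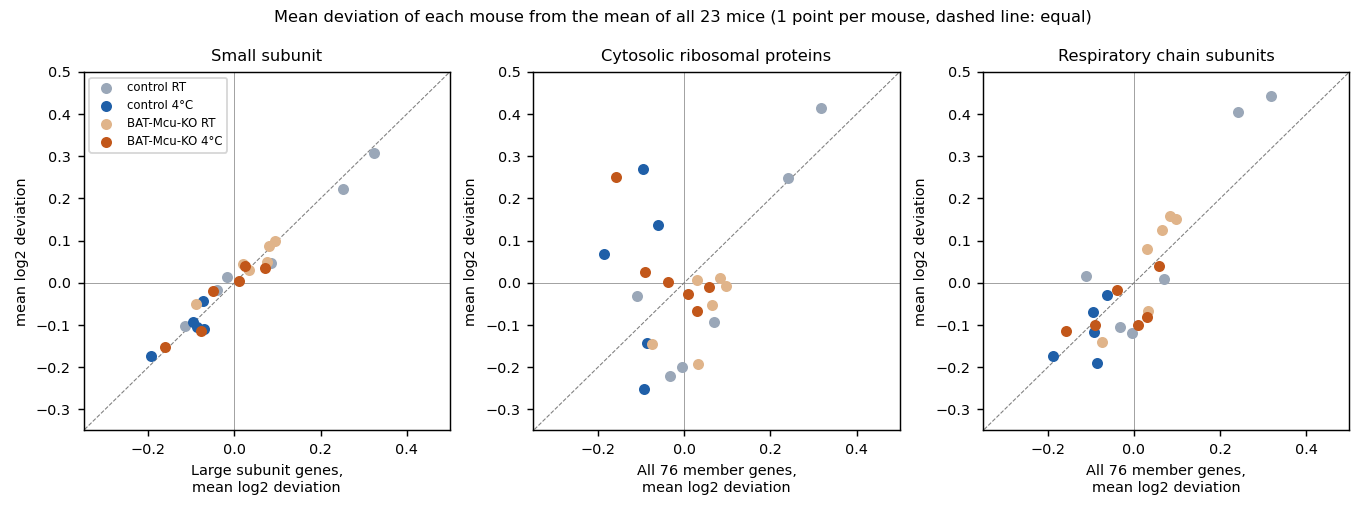
Mean log2 deviation of each of the 23 mice from the mean of all mice, with the small against the large subunit (left) and the cytosolic ribosomal proteins (middle) and nuclear genes of the respiratory chain (right) against all 76 members, colored by group. The subunits lie along the line of equality, and control mice 1 and 6 at RT stand apart at the upper right of each panel.

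By genotype, no member was called. At RT 0 of 76 members passed limma with Benjamini-Hochberg adjustment, where 0.0478% of all genes were called, and 1 had an unadjusted p under 0.05. At 4°C 0 of 76 passed, where 0.0751% of all genes were called, and 3 had an unadjusted p under 0.05. DESeq2 and edgeR on the recovered reads of 22 libraries also called 0 in both. The SE of a member's log2 difference had a median of 0.09 at RT and 0.10 at 4°C, so that small differences were within the error of a single gene. The smallest p at RT were those of Mrpl20 (-0.25 ± 0.10 log2, limma adjusted p = 0.94), Mrps30 (0.16 ± 0.08, adjusted p = 0.94) and Mrpl34 (-0.22 ± 0.12, adjusted p = 0.945). At 4°C they were those of Mrpl28 (0.22 ± 0.08 log2, limma adjusted p = 0.528), Mrps28 (0.26 ± 0.10, adjusted p = 0.591) and Mrpl46 (0.20 ± 0.09, adjusted p = 0.693).

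The median member differed by -0.06 log2 between BAT-Mcu-KO and control mice at RT, with 26 of 76 above 0 where 50.2% of all genes were. This median was -0.01 without control mouse 6 and 0.06, with 59 above 0, without control mice 1 and 6, so that its sign rested on these libraries. At 4°C the median was 0.08, with 64 of 76 members above 0, where 51.2% of all genes were. So were 71 of 82 genes of the respiratory chain list, 49 of 80 cytosolic ribosomal proteins and, from lists described below, 23 of 28 assembly factors. The counts were 12 of 16 for translation factors and 7 of 7 for mitoribosomal proteins without Mrp in their symbol. The groups did not overlap for 2 members higher in BAT-Mcu-KO mice at 4°C, where 0.389% of all genes did so. They were Mrps28, with 492, 396, 518, 519 and 474 in control mice against 540.1 to 649 normalized counts in BAT-Mcu-KO mice, and Mrps17, with 797, 747, 804, 795 and 800.3 against 812 to 953. The genotype comparisons share their mice with the cold comparisons and are not separate evidence of either.

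The interaction asked whether the change by cold differed between the genotypes. It called 0 of 76 members and 0% of all genes, with 3 members at an unadjusted limma p under 0.05, and DESeq2 and edgeR called 0 members too. The smallest p were those of Mrps28 (0.37 ± 0.14 log2, limma adjusted p = 0.78), Mrps17 (0.25 ± 0.10, adjusted p = 0.801) and Mrpl28 (0.25 ± 0.10, adjusted p = 0.801). These 3 fell in control mice, by 0.42, 0.25 and 0.35 on the log2 scale, and had changes of -0.05 ± 0.10, -0.00 ± 0.07 and -0.10 ± 0.07 in BAT-Mcu-KO mice. The log2 change of Mrps28 in control mice was -0.27 ± 0.09 without mice 1 and 6 at RT (limma adjusted p = 0.0157). The interaction was above 0 for 66 of 76 members, with a median of 0.13, where 52% of all genes were above 0. Without control mice 1 and 6 at RT it was above 0 for 46 members, with a median of 0.03. The median was 0.19 for the respiratory chain list and 0.13 for the cytosolic ribosomal proteins in all mice, and 0.00 and -0.04 without the 2 mice.

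Of 14 members picked for their place or role in the ribosome, with earlier results known, cold called 3 higher and 2 lower in control mice (4 and 0 without mice 1 and 6 at RT), and 5 higher and 1 lower in BAT-Mcu-KO mice, against 46% and 43.3% of all genes in either direction. Mrpl12, Mrpl10 and Mrpl11 encode the stalk that recruits translation factors and its base, and their log2 changes by cold in control mice were -0.02 ± 0.08, -0.20 ± 0.09 and -0.16 ± 0.10, none called. Mrps12, whose product lies at the decoding center, had a change of -0.23 ± 0.13 for control and 0.11 ± 0.13 for BAT-Mcu-KO mice, neither called. Mrpl45, which encodes the protein that holds the ribosome at the inner membrane, had -0.15 ± 0.09 and -0.12 ± 0.08, and Mrpl44, whose product is related to an RNase of bacteria, 0.02 ± 0.10 and 0.04 ± 0.10. Mrps22, mutated in a human mitochondrial disease, had 0.07 ± 0.09 and 0.10 ± 0.09. Mrps27, a pentatricopeptide repeat protein of the small subunit, fell by 0.34 and 0.36 on the log2 scale (limma adjusted p = 0.0187 and 0.0115), and the control call was lost without control mouse 1 or 4 at 4°C and without control mice 1 and 6 at RT.

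The 3 paralogs of a single bacterial protein, Mrps18a, Mrps18b and Mrps18c, had changes by cold of different sign. Mrps18b rose: its normalized counts in control mice ran from 229.9 to 299 with a median of 282 at RT and were 372, 331, 348, 316 and 362 at 4°C, all above the RT values. The log2 change was 0.34 ± 0.09 (limma adjusted p = 0.00315) and 0.32 ± 0.09 in BAT-Mcu-KO mice (adjusted p = 0.00429). Mrps18c had counts of 191 to 294 at RT against 208, 161, 163, 169 and 139 at 4°C in control mice, with 4 of 5 below all RT values. It fell by 0.47 ± 0.13 on the log2 scale in control mice (limma adjusted p = 0.00383), a call lost without control mice 1 and 6 at RT (-0.30 ± 0.12, adjusted p = 0.051). Its change in BAT-Mcu-KO mice was -0.29 ± 0.12 (adjusted p = 0.0586), and was called in the fit without those 2 control mice (limma adjusted p = 0.0262). Mrps18a had a change of 0.19 ± 0.09 in control mice (adjusted p = 0.0848, not called) and rose by 0.24 ± 0.09 in BAT-Mcu-KO mice (adjusted p = 0.0255). The latter call was lost under both other scalings and without BAT-Mcu-KO mouse 2 at RT or mouse 1 or 6 at 4°C. Without control mice 1 and 6 at RT, Mrps18a was called in both genotypes. It then rose by 0.34 ± 0.07 in control (limma adjusted p = 0.000707) and 0.24 ± 0.06 in BAT-Mcu-KO mice (adjusted p = 0.00323). Per kilobase, Mrps18a had the highest level of the 3, 1168 normalized counts, against 281 for Mrps18b and 308 for Mrps18c.

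Many members start head to head with another gene. For 23 of 76 members (30.3%) a protein coding gene on the opposite strand started upstream within 1000 bp, or just past the member's start. The share was 11.8% of the 12058 tested protein coding genes. Starts that overlapped further were not counted. Mrpl46 and Mrps11, which lie on opposite strands and overlap at their starts, are therefore not among these pairs. For 21 of the 23 the neighbor was tested too. Cold called 9 of these 21 members in control mice, where 46% of all genes were called. Without mice 1 and 6 at RT it called 8 of the 21, where 40.1% of all genes were called. Mrpl49 starts 59 bp from Fau, a cytosolic ribosomal protein gene, and fell by 1.15 on the log2 scale where Fau had a change of 0.03 (limma adjusted p = 0.835). Mrps18c starts 29 bp from Helq, a DNA helicase, and fell by 0.47 where Helq rose by 1.47 (adjusted p = 1.84e-09). Mrps27 fell by 0.34 where Ptcd2, 81 bp away, rose by 0.52 (limma adjusted p = 0.00011). In the other 2 pairs with both genes called, Mrpl2 and Klc4 both fell (by 0.58 and 0.48) and Mrps18b and Ppp1r10 both rose (by 0.34 and 0.62).

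**Figure D4:**
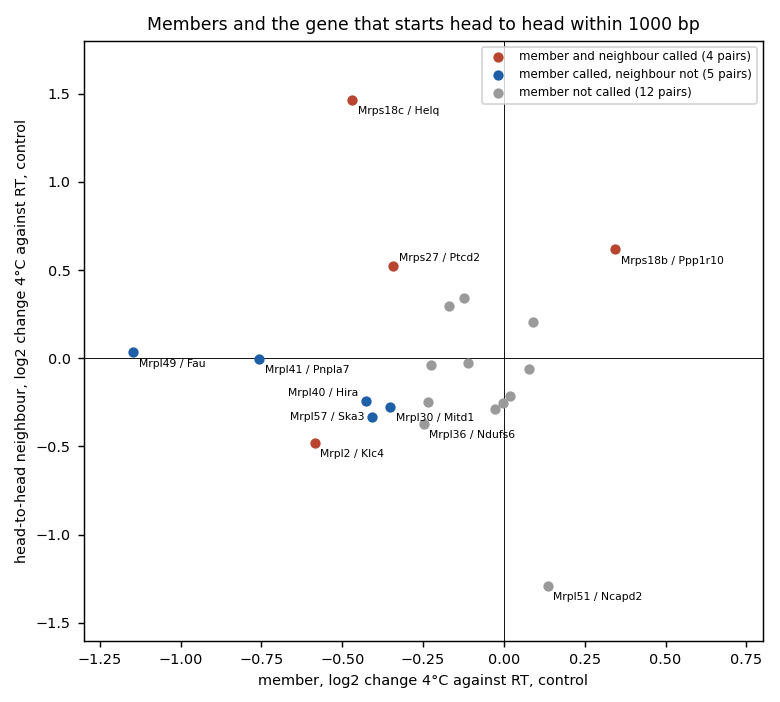
Log2 change by cold in control mice of members (x axis) and their head-to-head neighbors (y axis), 1 point for each of 21 pairs. Neighbors were protein coding genes counted as starting within 1000 bp, without larger overlaps of the starts. Both genes were called in 4 pairs, with the same direction in 2 and opposite directions in 2, and Mrpl49 lies far left at -1.15 with Fau at 0.03.

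Overlap with other genes limits some of these counts. Of the 76 members 40 overlap another annotated gene and 31 share exon bases with one. Mrpl49 shares 91 bp of exons with Syvn1 on the opposite strand, which rose by 0.38, and Mrpl46 shares 173 bp with Mrps11, whose change was -0.07. Exons of Mrps18b share 638 bp with Gm16279, which had a mean normalized count of 11.4 against 304 for Mrps18b. Of the 36 members that overlap no other gene, cold called 21 in control mice, 3 higher and 18 lower, where 46% of all genes were called. Without mice 1 and 6 at RT it called 13, 4 higher and 9 lower, where 40.1% of all genes were called. In BAT-Mcu-KO mice it called 12, 3 higher and 9 lower, where 43.3% of all genes were called. Mrps2, which rose the most, was among these 36. Across the 76 members the log2 change by cold had a Spearman correlation with mRNA length of 0.17 (control) and 0.11 (BAT-Mcu-KO), against 0.13 and 0.06 across all genes with a length, where genes of 1 library share its depth and preparation.

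Other genes of mitochondrial translation were counted from lists. Of 7 tested mitoribosomal proteins without Mrp in their symbol 5 fell by cold in control mice: Dap3, Chchd1, Aurkaip1, Ict1 and Oxa1l, the last an insertase of the inner membrane that binds the ribosome. Their log2 changes ran from -0.41 (Chchd1) to -0.20 (Dap3), and Chchd1 alone fell in BAT-Mcu-KO mice (-0.26 ± 0.10). Without control mice 1 and 6 at RT 2 of 7 were lower. Of 16 tested genes listed as translation factors 2 rose (Gfm1 and Lrpprc) and 5 fell in control mice (12.5% and 31.3%), where 22.3% and 23.7% of all genes did so. In BAT-Mcu-KO mice 2 rose and 2 fell (12.5% each), where 21.4% and 21.9% of all genes did so. When control mice 1 and 6 at RT were left out, 1 rose and 3 fell in control mice, where 19.8% and 20.3% of all genes did so. The median change of the list went from -0.02 to 0.03. Gfm1, an elongation factor that moves the ribosome along the message, rose by 0.51 ± 0.09 and 0.49 ± 0.08 in control and BAT-Mcu-KO mice. Mtif2, an initiation factor, had changes of -0.62 ± 0.11 and -0.46 ± 0.11, both called, and the elongation factor Tufm -0.02 ± 0.08 and -0.06 ± 0.08, neither called.

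Factors that assemble the mitochondrial ribosome or modify its RNA had more widely spread changes by cold than its proteins. Of 28 tested, 9 rose and 10 fell in control mice (32.1% and 35.7%), where 22.3% and 23.7% of all genes were called higher and lower. In BAT-Mcu-KO mice 9 rose and 6 fell (32.1% and 21.4%), where 21.4% and 21.9% of all genes did so. The interquartile range of their changes in control mice was 0.77 on the log2 scale, against 0.41 for the members and 0.91 for all genes. Ddx28 (1.07 ± 0.22 for control and 1.01 ± 0.21 for BAT-Mcu-KO mice), Fastkd2 (0.88 ± 0.12 and 0.92 ± 0.11) and Dhx30 (0.61 ± 0.09 and 0.59 ± 0.09), proteins of mitochondrial RNA granules, rose in both genotypes. Mterf3 rose by 0.74 ± 0.10 and 0.74 ± 0.09. Rpusd3, a pseudouridine synthase, had -1.83 ± 0.17 and -1.19 ± 0.16, and Rbfa, a small subunit assembly factor, -0.73 ± 0.11 and -0.68 ± 0.10, all called lower. Without control mice 1 and 6 at RT, 8 rose and 7 fell in control mice, where 19.8% and 20.3% of all genes did so.

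The nuclear genes of the respiratory chain and of the cytosolic ribosome were counted in the same way. Of 82 nuclear genes taken by symbol pattern for the respiratory chain, 1 rose (Atp5sl) and 39 fell by cold in control mice (1.22% and 47.6%). In BAT-Mcu-KO mice 0 rose and 6 fell (0% and 7.32%), and the medians were -0.25 and -0.08. Whether each product is a subunit of the chain was not checked. Of all genes 22.3% were called higher and 23.7% lower in control mice, and 21.4% and 21.9% in BAT-Mcu-KO mice. Without control mice 1 and 6 at RT, 1 rose and 10 fell in control mice, with a median of -0.09. In that fit 19.8% of all genes were called higher and 20.3% lower. Of 80 cytosolic ribosomal proteins 6 rose and 3 fell (Rpl35, Rps27l and Rpl39) in control mice (7.5% and 3.75%). In BAT-Mcu-KO mice 8 rose and 0 fell (10% and 0%), and the medians were -0.06 and 0.09. Without the same 2 mice 11 rose and 0 fell in control mice, with a median of 0.13. The medians of the members were -0.23 in control mice, -0.12 without these 2 mice, and -0.09 in BAT-Mcu-KO mice. By genotype and in the interaction 0 genes of each of these 5 lists were called by limma, with at most 3 of any list at an unadjusted p under 0.05.

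**Figure D5:**
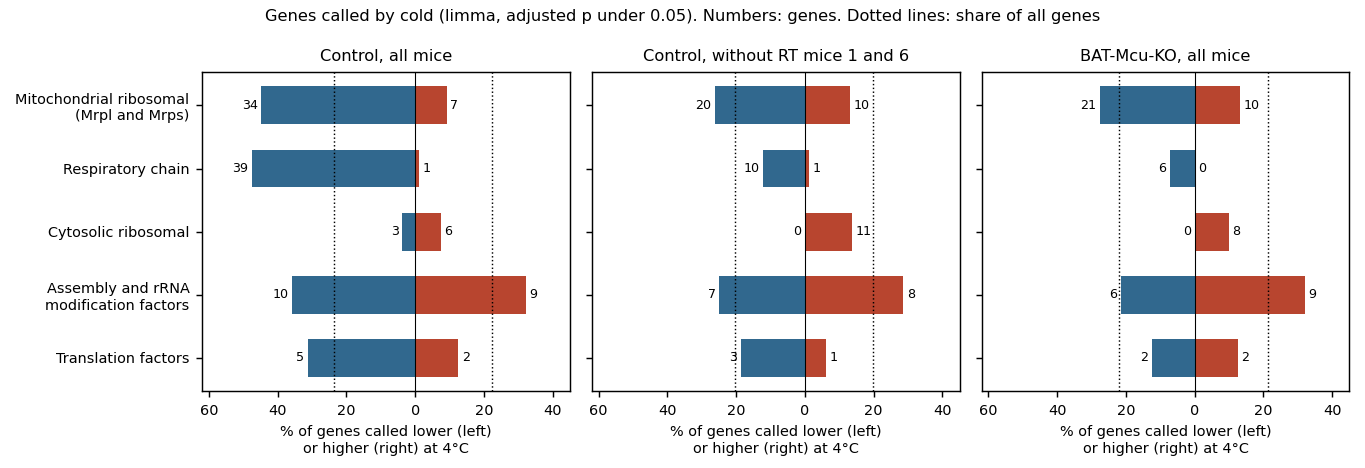
Share of each gene list called lower (blue, left) or higher (red, right) at 4°C, in percent of the genes tested, with the number of genes at each bar and dotted lines for the share of all genes, in control mice, in control mice without RT mice 1 and 6, and in BAT-Mcu-KO mice. Respiratory chain calls drop from 39 to 10 lower in the middle panel and member calls from 34 to 20.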

How the data were processed

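RNA-seq of BAT from 23 mice was analysed as 4 groups taken from the sample labels. According to the methods of the study, libraries were made by Smart-seq2 and read as pairs of 25 bp. The authors aligned the reads with STAR 2.4.0j to mm10 with GENCODE annotation, counted uniquely mapped reads in exons with HTSeq irrespective of strand, kept genes that reached 8 reads in 6 or more samples and divided by DESeq2 size factors. The signal that the authors deposited is this table of normalized counts. A table of the authors' own fold changes and p-values was not used, and 0 per-sample columns were left out.

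Members were found by symbol, and the members and gene lists were chosen with earlier results of these data known. Log2(normalized count + 1) was fitted with limma 3.58.1 in R 4.3.3 (mean per group, all 23 mice, variance trend), with Benjamini-Hochberg adjustment over 14651 genes and a threshold of 0.05. On simulated counts of 14651 genes for cold in control mice, limma found 25 of 59 genes changed by 1.5-fold, 68 of 73 changed by 2-fold and 68 of 68 changed by 4-fold, with 13 false calls. In all 23 libraries the values were whole multiples (within 0.02) of 1 read, and the reads of 22 were used for DESeq2 1.42.0 and edgeR 4.0.16. Control mouse 6 at RT was left out there because 1 read was worth 0.993, too close to 1 for the rule used to tell reads from normalized values. Depth limits precision through counting error only, since PCR copies are not independent molecules. Where samples of a group come from separate mice, p-values measure the spread between these mice.

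Named members were, by rule, the 6 lower and 6 higher with the smallest p by cold in control mice and the same direction in both genotypes, the 3 with the smallest p in each other comparison, the highest and lowest per length, and members picked for their role. Members and neighboring genes named for a shared promoter region or exon, and list genes, were chosen after their values were seen. Gene positions come from GENCODE M21 on GRCm38, in which 93.9% of genes were found by symbol, and promoters from RefSeq. Alternatives were a pseudocount of 0.5 or 10, a mean count of 50 or more, quantile normalization, scaling to the 75th percentile, no variance trend, only the compared groups, the replicate number as a block, members that overlap no other gene, DESeq2 and edgeR, and each mouse left out. Tables were handled with pandas 2.3.3 in Python 3.11.15. In 19 symbols turned into dates the gene is not named, and these genes stayed in the tests.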

Additional observations from a re-analysis of the deposited data

Results flagged for a closer look

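In 156 groups of values, 9 held a lone sample whose gap to its neighbor was large for the range of the group, where chance alone marks about 1 in 20 groups. In control mice at 4°C the lowest normalized count of Mrpl12 was 783 (mouse 1, next 906), that of Mrps17 was 747 (mouse 2, next 795) and the lowest mean deviation of the large subunit was -0.194 (mouse 4, next -0.0959). In BAT-Mcu-KO mice at RT the highest count of Mrpl14 was 687 (mouse 4, next 579) and of Mrpl28 1221 (mouse 4), and the lowest count of Mrpl3 was 677 (mouse 5, next 836) and of Mrpl44 412 (mouse 5, next 539). In control mice at RT the highest count of Mrpl44 was 685 (mouse 6, next 536). In BAT-Mcu-KO mice at 4°C the highest count of Mrps9 was 777 (mouse 5, next 719).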

How the results depend on the processing

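No result changed its direction and kept a call. Counts of calls and direction held under a pseudocount of 0.5 or 10, a mean count of 50 or more, no variance trend, only the compared groups, DESeq2 and edgeR, within 1.5 times. The median member change by cold in control mice (-0.23) was -0.35 under quantile normalization, -0.34 under scaling to the 75th percentile and -0.12 without control mice 1 and 6 at RT, and in BAT-Mcu-KO mice (-0.09) -0.21 under quantile normalization. The median genotype difference at RT (-0.06) was 0.059 without control mice 1 and 6. The gap of large minus small subunit medians was 0.05 in control mice, 0.079 with edgeR and 0.018 for members that overlap no other gene. For BAT-Mcu-KO mice the gap was 0.01, and -0.079 for such members. Among these 36 members, fewer than 76 by construction, 21 were called by cold in control mice and 12 in the BAT-Mcu-KO group, against 46% and 43.3% of all genes. Leaving out each mouse gave 36 to 46 called members by cold in control mice (median -0.27 to -0.18, gap 0.023 to 0.11), 23 to 34 in BAT-Mcu-KO mice (median -0.11 to -0.06, gap -0.030 to 0.068), and 0 by genotype and in the interaction, with medians by genotype of -0.09 to -0.01 at RT and 0.06 to 0.11 at 4°C. The lowest counts came without control mouse 4 at 4°C and BAT-Mcu-KO mouse 2 at RT. The causes were not tested.

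Mice with the same replicate number were different animals, and the numbers did not pair them: the mean correlation of the deviations of same-numbered mice was -0.03 for cold in control, -0.10 for cold in BAT-Mcu-KO, -0.04 for genotype at RT and 0.12 for genotype at 4°C, where the lowest was 0.04. With the replicate number as a block, 41 members were called by cold in control (median -0.21), 28 in BAT-Mcu-KO mice (median -0.09) and 0 by genotype (medians -0.06 at RT and 0.06 at 4°C) or in the interaction. DESeq2 and edgeR were planned on 23 samples and were run on 22. Members near the floor of detection were few, and Mrpl23, at a mean normalized count of 32.6, was the lowest. A change of 1.5-fold was often missed in simulated data, where 59, 73 and 68 of 14651 genes were changed by 1.5-fold, 2-fold and 4-fold. Cold called 46% of all genes in control mice, so the simulated share missed cannot be carried over to the members. The median SE of a member's log2 change by cold in control mice was 0.10. At a log2 change of -0.25, smaller than 1.5-fold, Mrps17 was called there and Mrpl36 was not. Changes smaller than 1.5-fold in single members can thus go uncalled.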
